A study of Homo sapiens with 6 samples.

Results

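MiR-4730, miR-3663-3p and miR-3135b are human microRNAs (miRNAs) that were registered late in the miRBase catalogue and have been little studied. They are 3 of the 1719 human miRNA probes on the array, each with 1 spot, and were picked by name because their probes were well above background and brighter in cells treated with aristolochic acid. The cells were HK-2, a standard immortal cell line derived from the epithelium of the human kidney's proximal tubule. Aristolochic acid, a toxin of Aristolochia plants, damages DNA and harms this part of the kidney. All 6 samples were kept in medium with 0.2% serum for 48 h, 3 of them without the toxin (control replicates 1 to 3) and 3 with aristolochic acid at 5 µg/ml (treated replicates 1 to 3). A Cy5 label was put on 500 ng of each sample's total RNA. Nothing in the labels says that replicates came from separate cultures, so their spread may be technical.

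A miRNA is cut from a hairpin in a longer transcript, and one or both arms of the hairpin become mature strands of about the same length. The mature strand guides the silencing complex to messenger RNAs, chiefly through its seed, the stretch of bases 2 to 8. MiRNAs that share a seed can bind the same sites, and miRNAs cut from 1 transcript are often made together. No target or function of these 3 miRNAs in the kidney tubule is described here.

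The mature sequences are shown first because they decide which other probes could be related to these 3. Each is written 5′ to 3′ with its seed in capitals.
hsa-miR-4730: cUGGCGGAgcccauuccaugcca
hsa-miR-3663-3p: uGAGCACCacacaggccgggcgc
hsa-miR-3135b: gGCUGGAGcgagugcaguggug
The array also carried the other arm of the miR-3663 hairpin and a probe named miR-3135, which RefSeq now lists as miR-3135a.
hsa-miR-3663-5p: gCUGGUCUgcguggugcucgg
hsa-miR-3135: uGCCUAGGcugagacugcagug

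The 3 seeds differ from each other. Of the 1719 human probes, 1000 were matched by name to a RefSeq mature sequence, and among those no other probe shared bases 2 to 7 with any of the 3 (0 probes). The longest stretch common to a pair of them was ggagc, of 5 bases, in miR-4730 and miR-3135b. MiR-3135 and miR-3135b, which have the same number, shared ugcagug, of 7 bases, and had different seeds.

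The 3 miRNAs also lie apart in the genome (GRCh38.p14). The mature miR-4730 is at chr17:80419427-80419449 on the plus strand, inside ENDOV, which encodes endonuclease V and is on the same strand. MiR-3663-3p is at chr10:117167695-117167717 on the minus strand, inside the long non-coding RNA gene MIR3663HG, also on the minus strand. MiR-3135b is at chr6:32749952-32749973 on the minus strand, in no listed gene, between HLA-DQA2 and HLA-DQB2 of the major histocompatibility region. The gene table used gives no exons, so exonic and intronic positions were not analysed here. Apart from miR-3663-5p, the other arm of the miR-3663 hairpin, no miRNA of the RefSeq table lay within 10000 bases of any of them, and the nearest from another gene, miR-1268b, was 320577 bases from miR-4730.

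The array as a whole differed between the groups. The background that the authors subtracted lay at 50.6 to 51.8 for control and 53.3 to 61.8 for treated samples (2-sided exact permutation p = 0.1, the smallest that 3 against 3 arrays can give). The spike-in spots averaged 0.26 higher on the log2 scale on treated arrays, and the array median of the 503 human probes detected on all 6 arrays was 0.53 higher, each without overlap of the groups. The labels name no batch, and an effect of one and of the toxin cannot be told apart. Of 5 kidney epithelial miRNAs, 5 were detected on all 6 arrays. The summed scaled intensity of all 5 was 2384.04 to 15269.4 in control and 12066.1 to 14865.5 in treated samples, with overlap. Without miR-21, the sum of those kidney miRNAs was 87.1 to 88.8 in control and 142 to 190 in treated samples. The part of these sums in the differences below was not tested. Of 11 markers of blood, muscle, neurons or liver, 5 were detected on all arrays, 4 on some and 2 on none. Those on all arrays were miR-142-3p of blood, miR-1 and miR-133a of muscle, and miR-9 and miR-128 of neurons. Those on none were miR-451 of red cells and miR-124 of neurons. The summed scaled intensity of those 11 was 173 to 194 in control and 174 to 185 in treated samples.

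MiR-4730 was the member with the largest difference. Its scaled intensity, a unit in which the median of the probes detected on all 6 arrays is 25, was 143, 158 and 127 on control replicates 1, 2 and 3. On treated replicates 1, 2 and 3 it was 371, 317 and 416. The lowest treated array was thus above the highest control array, and no array stood apart from its group. The means were 143 ± 15.4 and 368 ± 49.6 (SD, n = 3 per group), a ratio of geometric means of 2.57. In RNA from a whole culture, more cells that carry a miRNA and more of it per cell cannot be told apart.

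The raw spots show the same before any scaling. The raw intensity of miR-4730 was 144, 149 and 123 in control and 389, 348 and 407 in treated samples. Divided by the background of its own array, it was 2.44 to 2.88 in control and 6.29 to 7.04 in treated samples. The spot was well clear of the detection limit in both groups, as the dimmest human spot the authors kept was at 53.3 to 54.2 on control and 57.2 to 66.7 on treated arrays.

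MiR-3135b came next in size. Its scaled intensity was 96.6, 84.6 and 76.9 in control and 144, 190 and 214 in treated samples. The groups did not overlap, but treated replicate 1 was well below the other treated arrays. The means were 86.0 ± 9.95 and 183 ± 35.2 (SD, n = 3 per group), a ratio of 2.10. The raw spots were at 94.5 to 114 in control and 189 to 237 in treated samples, or 1.87 to 2.24 and 3.06 to 4.31 times the background of their arrays.

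MiR-3663-3p had the smallest difference and the tightest replicates. Its scaled intensity was 122, 127 and 107 in control and 202, 180 and 204 in treated samples, again without overlap. The means were 119 ± 10.6 and 195 ± 13.1 (SD, n = 3 per group), a ratio of 1.65. Before scaling, the raw spots were at 112 to 131 in control and 221 to 239 in treated samples.

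**Figure D1:**
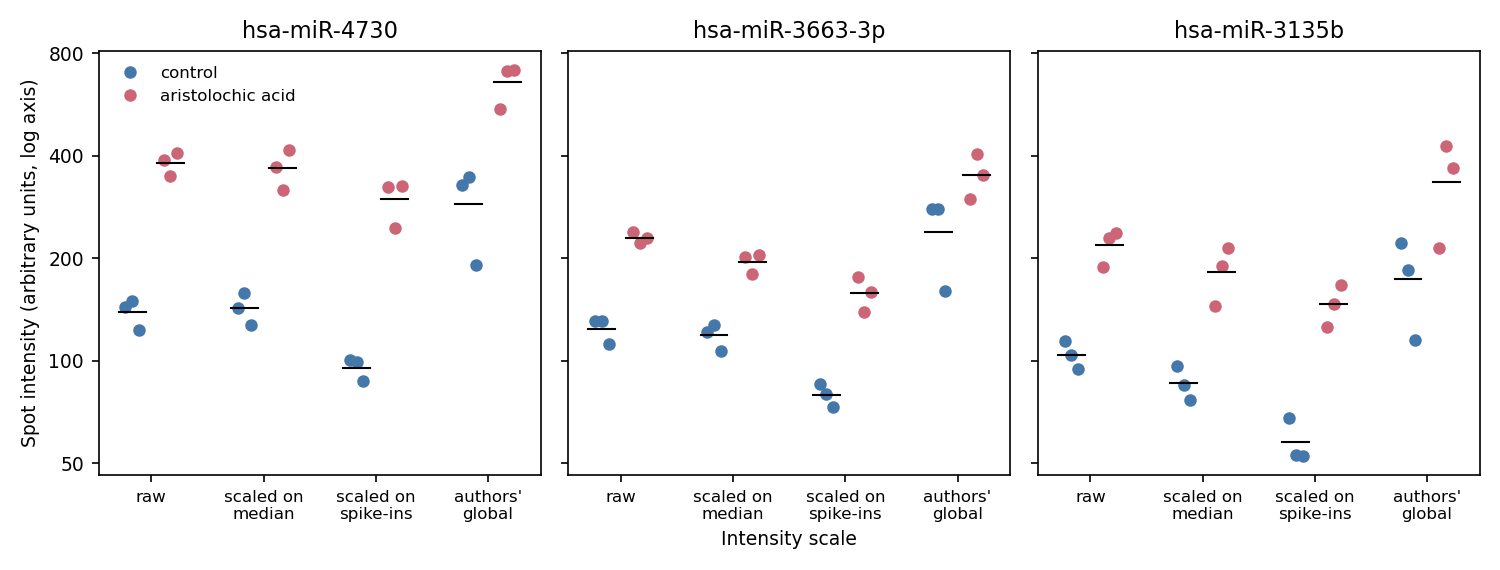
Spot intensity (log axis, arbitrary units) of the 3 miRNAs on 4 intensity scales, with 1 point per array and a line at the mean of each group of 3 arrays. The groups are apart on the raw, median and spike-in scales for all 3. How many other probes are apart on the raw scale was not counted. On the authors' global scale treated replicate 1 of miR-3135b, at 214, lies below control replicate 1, at 222.

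The spike-ins give a scale that does not rest on the human probes. On it the mean of miR-4730 was 95.4 ± 7.26 in control and 298 ± 45.9 in treated samples (SD, n = 3 per group), a ratio of 3.10. MiR-3135b went from 57.8 ± 8.63 to 147 ± 20.7, a ratio of 2.54, and miR-3663-3p from 79.5 ± 6.12 to 158 ± 18.3, a ratio of 1.99. All 3 differences were larger than on the median scale by the same amount. Both scalings shift all probes of an array alike, so this is no result about the 3. The groups stayed apart. On the spike-in scale 109 of 503 probes had all treated above all control arrays, or 21.7%, against 44 of 503, or 8.75%, for the scaled intensity. The median probe was 0.20 higher on the spike-in scale and -0.07 on the scaled intensity. At which step the spike-ins entered is not given in the sources used here.

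On the authors' globally normalized intensity the differences were smaller and noisier. The median of the 503 probes was lower there too, at -0.21 against -0.07 on the scaled intensity. MiR-4730 was at 288 ± 84.7 in control and 658 ± 93.9 in treated samples (SD, n = 3 per group), still without overlap. MiR-3663-3p was at 240 ± 68.5 and 351 ± 52.9, where the lowest treated array, at 299, was close to the highest control array, at 279. MiR-3135b was at 174 ± 54.0 and 335 ± 109, and its groups overlapped. On this scale 15 of 503 probes, or 2.98%, had all treated above all control arrays.

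A fit over all tested probes gives the setting in which the 3 were picked. In limma on the quantile-normalized values, 5 of 625 probes were higher past an adjusted p of 0.05, or 0.800%, and 1 was lower, or 0.160%, for 6 in all, or 0.960%. The 5 were these 3, miR-450a of a cluster on the X chromosome and the p53-responsive miR-194, and the lower one was the epithelial miR-205. The log2 difference was 1.01 for miR-4730 (SE 0.083), 0.69 for miR-3135b (SE 0.099) and 0.51 for miR-3663-3p (SE 0.047). Their adjusted p-values in limma were 0.00360, 0.0285 and 0.00360. Since these values chose the members, they are a description and not evidence of a change. MiR-3135b was the rise just inside the threshold, and the kidney miRNA miR-192 was just outside, with a difference of 0.33 and an adjusted p of 0.0687.

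MiR-3135b did not stay past the threshold when most single arrays were left out, and fewer arrays by themselves lower the precision. In the limma fits that left out 1 array, its adjusted p was 0.0072 without treated replicate 1, where the difference was 0.80, and above 0.05 in the other 5 of 6 fits (0.0748 to 0.134). MiR-4730 and miR-3663-3p were past the threshold in 6 of 6 such fits (adjusted p from 0.0085 to 0.0275 and from 0.0132 to 0.0297 in limma). Their differences ran from 0.95 to 1.09 and from 0.47 to 0.53, against 0.63 to 0.80 for miR-3135b. On the scaled intensity miR-3663-3p did not pass (limma adjusted p = 0.0661), while miR-4730 and miR-3135b did (0.00921 and 0.0467). On the authors' globally normalized intensity none of the 3 passed, with limma adjusted p of 0.107 for miR-4730, 0.884 for miR-3663-3p and 0.552 for miR-3135b.

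**Figure D2:**
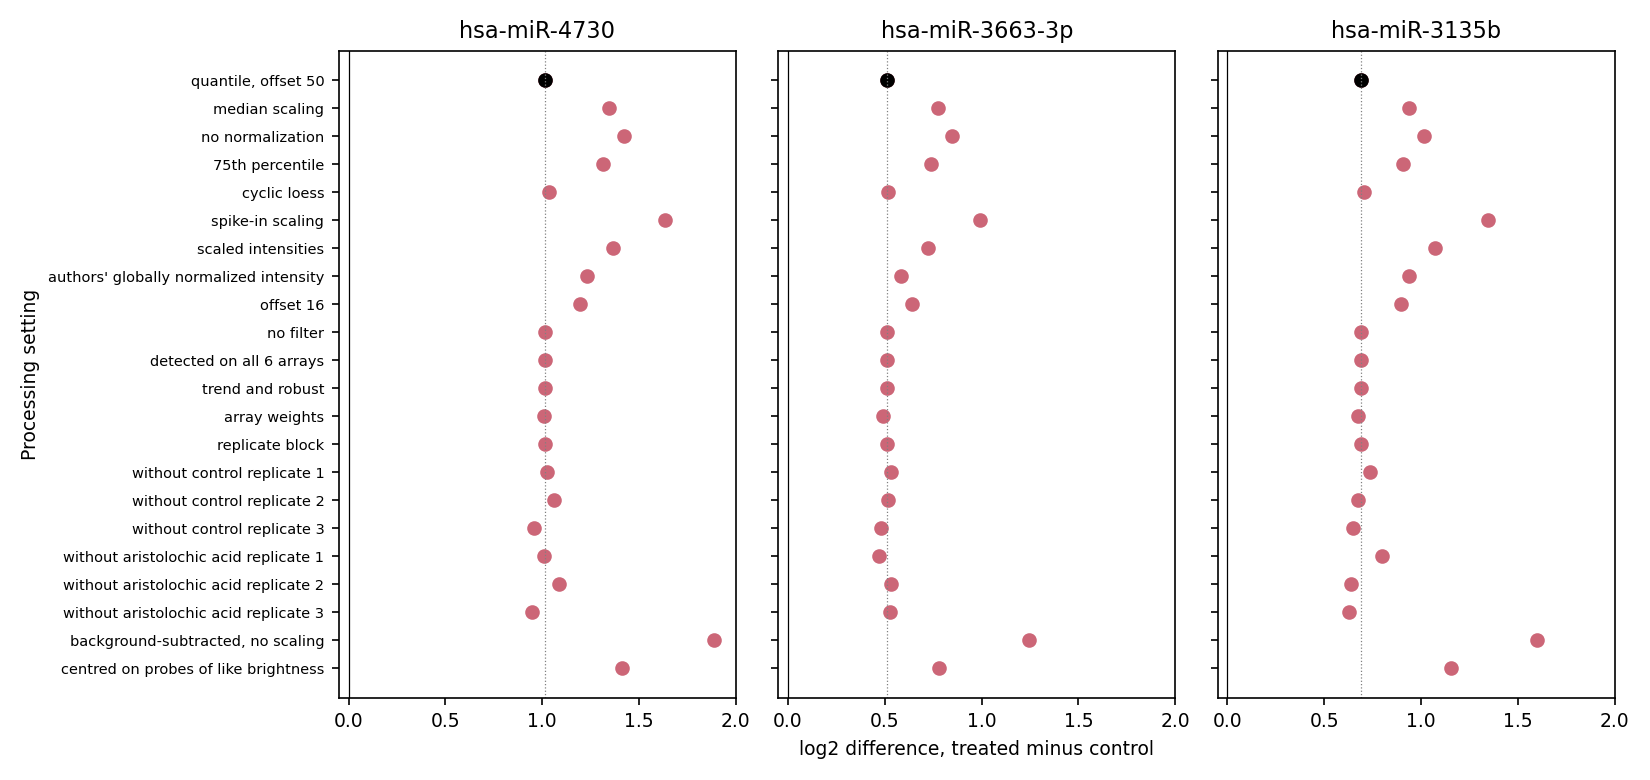
Log2 difference, treated minus control (x axis), of the 3 miRNAs under each processing setting (y axis), with the reported setting in black. All points lie above 0, from 0.95 to 1.89 for miR-4730, 0.47 to 1.25 for miR-3663-3p and 0.63 to 1.60 for miR-3135b.

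Probes of like brightness share the noise and the shrinkage of the offset, so each miRNA was set beside the 50 tested probes nearest to it in mean log2 intensity. MiR-4730 ranked 1 of 51 by its rise, where its neighbours had a median difference of -0.03 and ran from -0.41 to 0.51. The neighbour at 0.51 was miR-3663-3p, and the next were miR-3940-5p at 0.27 and miR-1228* at 0.22. MiR-3135b also ranked 1 of 51, with neighbours from -0.32 to 0.51 and a median of -0.01. MiR-3663-3p ranked 2 of 51, behind miR-3135b alone, with a neighbour median of -0.03. As the 3 were picked for their rise, high ranks follow from that choice and are a description.

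The 3 miRNAs differed in how noisy they were for their brightness. The SD within groups was 0.061 on the log2 scale for miR-3663-3p, below the 0.0997 median of its neighbours, and 12 of the 50 had a smaller one. It was 0.12 for miR-4730, where 37 of 50 neighbours had a smaller SD, and 0.15 for miR-3135b, where 42 of 50 did. These are single spots, so spot noise and sample differences enter the SD together.

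On the spike-in scale the neighbours themselves were higher. This scaling shifts all probes of an array alike, so it cannot change a gap or a rank among them and is no check of either. The 50 neighbours of miR-4730 had a median of 0.25, those of miR-3663-3p 0.21 and those of miR-3135b 0.21. Above those medians the 3 were higher by 1.39, 0.78 and 1.13. The ranks, which belong to the background-subtracted values with or without this scaling, were 1, 2 and 1 of 51. Among the neighbours of miR-4730, 17 of 50 had all treated above all control arrays on this scale, as had 13 of 50 for each of the other two.

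The neighbours also give a reference within each array. Relative to the median of the 50 like-bright probes of the same array, the log2 background-subtracted intensity of miR-4730 was -0.65, -0.46 and -0.78 in control and 0.82, 0.62 and 0.90 in treated samples. MiR-3663-3p was at -0.23, -0.25 and -0.53 in control and at 0.46, 0.51 and 0.37 in treated samples. MiR-3135b was at -0.44, -0.71 and -0.74 in control and at 0.17, 0.78 and 0.63 in treated samples. Each of the 3 was dimmer than the median of these probes on every control array and brighter on every treated array. Since the neighbours match in mean brightness over both groups, the change of sign follows from the rise for which the 3 were picked.

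**Figure D3:**
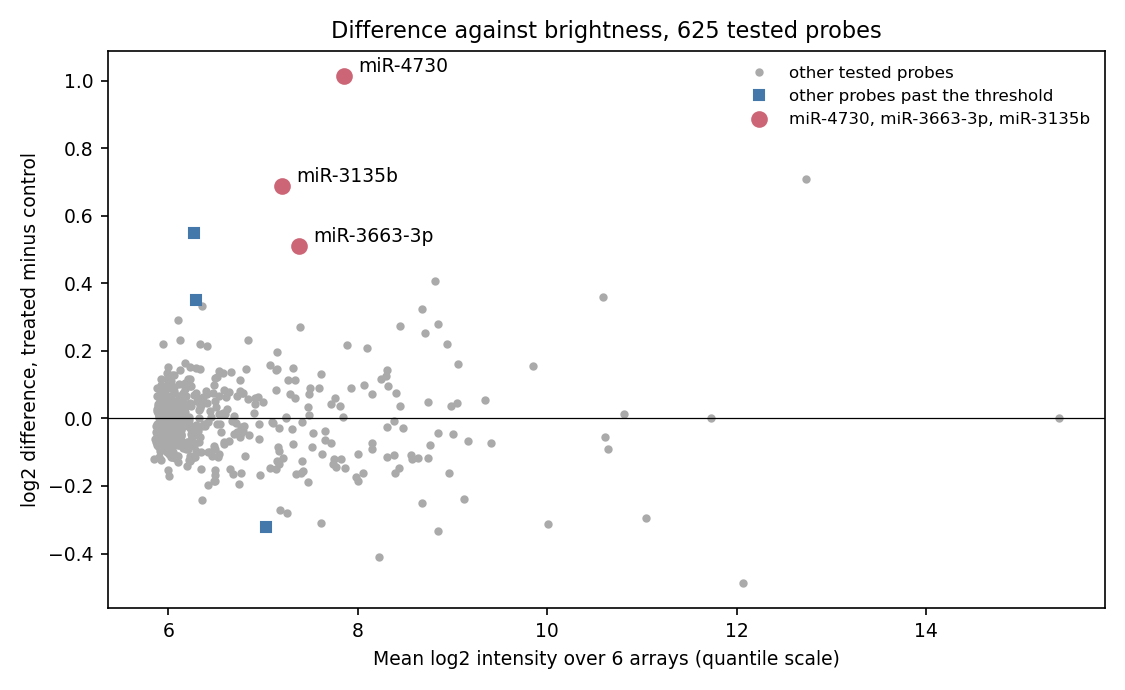
Log2 difference, treated minus control (y axis), against mean log2 intensity over 6 arrays (x axis) for the tested probes on the quantile scale, with 1 point per probe. MiR-4730 at 1.01, miR-3135b at 0.69 and miR-3663-3p at 0.51 lie above the other probes of their brightness, and miR-450a and miR-194 (squares above 0) are dimmer.

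Without any scaling, the place of each spot in the brightness order of its own array moved the same way. Among the 503 probes detected on all 6 arrays, with 1 as the brightest, miR-4730 was at place 91, 86 and 102 on the control arrays and at 41, 49 and 36 on the treated arrays. MiR-3663-3p was at 107, 109 and 114 in control and at 70, 77 and 76 in treated samples. MiR-3135b was at 123, 132 and 137 in control and at 94, 73 and 72 in treated samples. The groups did not overlap for any of the 3. With them, 47 of the 503 probes, or 9.34%, had all treated arrays nearer the brightest than all control arrays. Moves of this size were not rare, since 29 probes gained more places than the 51 of miR-4730 and of miR-3135b and 60 gained more than the 35.7 of miR-3663-3p, against a median move of 15 places in either direction. A place in this order is a property of the spots and says nothing of the amount of one miRNA against another.

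The place of the 3 among all probes differed between the scales. By log2 difference on the quantile scale miR-4730 was at rank 1, miR-3135b at rank 3 and miR-3663-3p at rank 5 of 624 probes with a value on all arrays. MiR-21 was between the first 2, and miR-450a between the others. Places near the top go with the choice of the 3 by their rise. On the scaled intensity, the ranks were 3, 6 and 18 of 503. These scales differ in background correction, offset, normalization and probe set, and which of these moved the ranks was not tested. There miR-450a and miR-542-3p of the X cluster were above miR-4730, and miR-194 and miR-215 were also above miR-3135b.

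Ratios between the 3 spots of an array need no scaling either. The log2 ratio of miR-4730 to miR-3663-3p was 0.26 ± 0.041 in control and 0.91 ± 0.11 in treated samples (SD, n = 3 per group), without overlap. The difference between the groups was thus larger for miR-4730 than for miR-3663-3p on these arrays. The ratio of miR-4730 to miR-3135b was 0.57 to 0.90 in control and 0.74 to 1.36 in treated samples, and that of miR-3663-3p to miR-3135b was 0.33 to 0.59 and -0.07 to 0.48. Both of these overlapped between the groups.

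The other arm of the miR-3663 hairpin had nearly equal levels in both groups on the scaled intensity. Both mature arms, in capitals, lie in this RefSeq hairpin at chr10:117167678-117167774 (GRCh38.p14, minus strand), the 5p arm first.
MIR3663 hairpin: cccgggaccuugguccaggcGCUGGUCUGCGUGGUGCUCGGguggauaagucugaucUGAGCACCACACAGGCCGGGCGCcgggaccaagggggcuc
The stretch gagcaccac of the 3p arm, of 9 bases, is complementary to the 5p arm. The scaled intensity of miR-3663-5p was 19.8, 24.5 and 24.9 in control and 22.8, 21.9 and 21.9 in treated samples, and the groups overlapped. The means were 23.1 ± 2.82 and 22.2 ± 0.549 (SD, n = 3 per group), with a limma log2 difference of -0.0074 (SE 0.035, adjusted p = 0.934).

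The miR-3663-5p spot was detected on all 6 arrays but was dim, at raw intensities of 63.9 to 67.0 in control and 73.7 to 81.9 in treated samples. The subtracted background was 50.6 to 51.8 and 53.3 to 61.8. After background subtraction without scaling, the 5p groups were apart, at 14.1 ± 1.11 and 19.6 ± 1.10. The ratio was 1.39, against 2.37 for miR-3663-3p. On the spike-in scale the means of miR-3663-5p were 15.4 ± 1.58 and 18.0 ± 1.67, with overlapping groups. The log2 ratio of the 3p spot to the 5p spot was 2.62, 2.38 and 2.10 on the control arrays and 3.14, 3.04 and 3.22 on the treated arrays. The ratio was 0.77 higher in treated samples, larger than the spread within either group. The difference was not tested, because the 3p arm was picked for its rise.

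**Figure D4:**
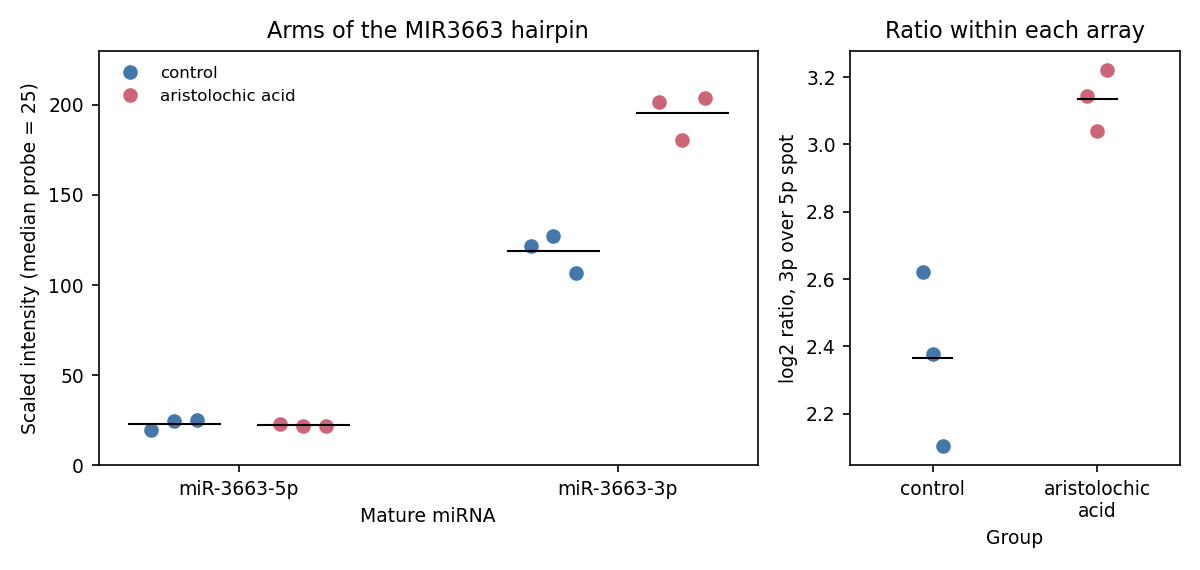
Left, scaled intensity (median probe = 25) of both arms of the miR-3663 hairpin, and right, the log2 ratio of the 3p to the 5p spot within each array, with 1 point per array and a line at the mean of each group of 3. The 5p arm stays at 19.8 to 24.9 on all arrays, and the ratio is 2.10 to 2.62 in control and 3.04 to 3.22 in treated samples.

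MiR-3135 was not detected on any of the 6 arrays (0 in control, 0 in treated samples). Its raw intensity was 50.1 to 52.5 in control and 51.7 to 62.8 in treated samples, between -1.60 and 1.06 after subtraction of the background of its array. Of the relatives by number, then, 1 of 2 could be tested.

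The probes whose pattern over the 6 arrays was most like that of each miRNA were ranked by Pearson correlation on the quantile scale, over 623 probes. Such correlations rest mostly on the difference between the groups and share the arrays, so they are descriptions. For miR-4730 they were miR-3663-3p (r = 0.978), miR-584 (0.976), miR-378g (0.969) and miR-3616-3p (0.967). For miR-3663-3p they were miR-1228* (0.987), miR-584 (0.986), miR-4730 (0.978) and miR-4747-3p (0.963). For miR-3135b they were miR-3616-3p (0.984), miR-4428 (0.970), miR-450a (0.966) and miR-4430 (0.959). Apart from the members and miR-450a, these probes had log2 differences between 0.044 and 0.22, and none passed the limma threshold (adjusted p from 0.0687 to 0.531).

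None of the other late-registered miRNAs passed the threshold. Beside the 3 members, 267 probes with a miRBase number of 3000 or above were tested, and in limma 0 were higher and 0 lower past the threshold, with 20 higher and 18 lower at an unadjusted p under 0.05. Over all 625 tested probes, with the members, these counts were 5 and 1 past the threshold and 44 and 50 unadjusted. Outside the 3 members only miR-450a, miR-194 and miR-205 passed among all tested probes, so the absence is not particular to this class. The median log2 difference of the class was 0.0037, against -0.01 over all tested probes. Within the class miR-4730, miR-3135b and miR-3663-3p ranked 1, 2 and 3 of 270, where high ranks follow from the rise for which they were picked. The next were miR-4530 at 0.32 (limma adjusted p = 0.133), miR-4488 at 0.27 (0.132) and miR-3940-5p at 0.27 (0.309). The lowest were miR-4664-5p at -0.27 (0.182), miR-3197 at -0.19 (0.114) and miR-3647-3p at -0.19 (0.101).

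The 3 sequences are rich in G and C, as are many of the tested probes. G and C made up 65.2% of miR-4730, 73.9% of miR-3663-3p and 68.2% of miR-3135b, against a median of 61.9% over 331 tested probes with a sequence, of which 124, 47 and 90 had more. G alone made up 26.1%, 34.8% and 54.5%, so only miR-3135b of the 3 was above the median of 38.1%. Of the tested probes 53.0% had a matched sequence, too few for a check over all probes. Among those numbered 3000 or above it was 82.6%, or 223 of 270.

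None of the G-rich probes outside the 3 passed the threshold. Without the 3, 156 tested probes had at least 40% G, and 0 were higher and 0 lower in limma, with 15 higher and 8 lower at an unadjusted p under 0.05. Over all 331 tested probes with a sequence, 3 were higher past the threshold, the members, and 0 lower, with 24 and 23 unadjusted. No probe with a sequence passed outside the 3, so the absence is not particular to G-rich probes. Their median log2 difference was 0.01, and the largest differences were miR-4530 at 0.32, miR-762 at 0.28 and miR-4488 at 0.27. The lowest were miR-3197 at -0.19, miR-4467 at -0.15 and miR-2392 at -0.14.

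Within the late-registered class, G content went with the difference. The 122 probes with at least 40% G had a median of 0.03 on the quantile scale, and 77 were above 0. All treated arrays were above all control arrays for 14 of them and below for 7. The 98 probes with less G had a median of -0.02 with 37 above 0, and these counts were 3 and 16. Over all probes they were 55 and 67 of 624, or 8.81% and 10.7%. Above 0 were 280 of all 625 tested probes, or 44.8%. In the class it was 63.1% of the G-rich probes and 37.8% of those with less G.

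On the scaled intensity the medians were 0.04 over 107 G-rich and -0.18 over 68 other probes. On the quantile scale the difference was correlated with base content across 220 probes of the class, without the members. The correlation was 0.31 with the G share and 0.38 with the G and C share. Probes are not independent replicates, and the G-rich probes were also brighter, with a median log2 intensity of 6.24 against 5.98, a part that was not tested. MiR-4730 and miR-3663-3p belong to the probes with less G.

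**Figure D5:**
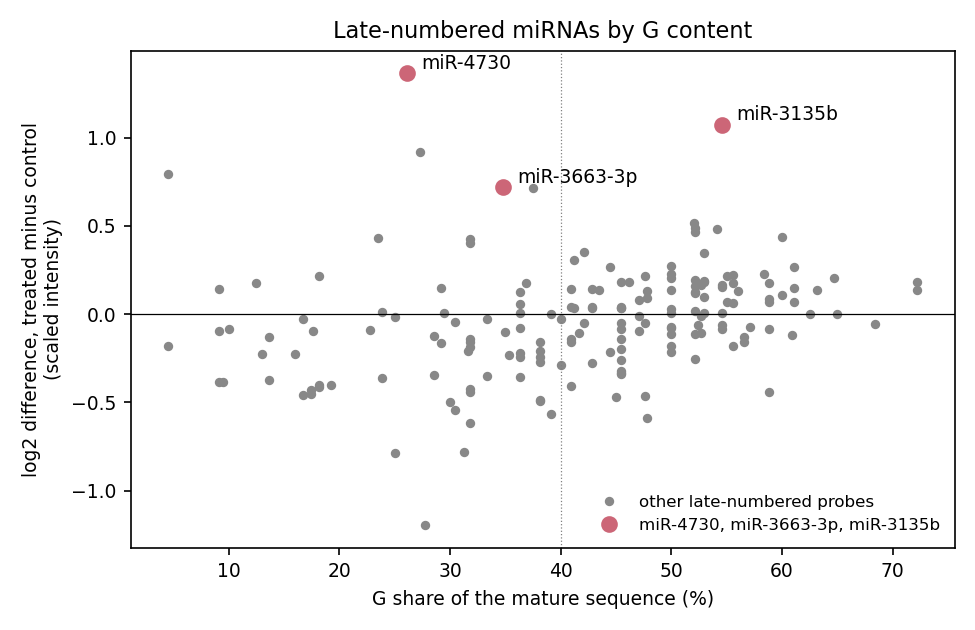
Log2 difference in scaled intensity, treated minus control (y axis), against the G share of the mature sequence (x axis, %) for late-registered miRNAs detected on all 6 arrays, with 1 point per probe and a dotted line at 40%. MiR-4730 and miR-3663-3p, at 26.1% and 34.8% G, lie left of the line among probes with a median of -0.18, and miR-3135b, at 54.5%, lies to the right.

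A last feature looked at was whether the sequences recur near gene starts. Among 35116 human promoters (250 bases before to 50 after the start, both strands), the most frequent 12-base stretch of miR-4730 occurred in 0.0456%, that of miR-3663-3p in 0.0570% and that of miR-3135b in 0.0313%. No matched probe on the array (0 probes) had a stretch in 1% of the promoters or more, so no list of repeated sequences could be compared.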

How the data were processed

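MicroRNA signal was measured on single-colour arrays, 1 per sample. Per the file headers, the authors deposited for each spot a raw intensity, a background-subtracted intensity, an average, its coefficient of variation (a ratio, not used here) and a globally normalized intensity. The series value table held the same globally normalized intensity, within 4.1e-05 over 4708 values, with a median of 25.0 in each column. The array platform, scanner and software are not given in the sources used here.

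The raw intensity was background corrected (normexp, offset 50, over all spots), and the 1719 human probes were then quantile normalized without spots marked as outliers. Detection means that the authors kept a background-subtracted intensity for the spot. Group differences were fitted with limma 3.58.1 (R 4.3.3) without covariates for 625 probes, those that all 3 arrays of either group detected, with Benjamini-Hochberg adjustment over all of them. Levels are printed as scaled intensity, the background-subtracted intensity brought to a median of 25 over the 503 probes that every array detected, and on a scale set by the 16 spike-in spots. The steps were tested on simulated data.

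The members, lists and tests were chosen with earlier results of these data known. The text names the 3 members, the 4 probes nearest to each in pattern, probes past or next to the threshold, like-bright probes with larger rises, and the 3 largest rises and falls of each list. Alternatives changed scaling, offset, filter, variance model, weights and block, and left out each array. Sequences are from RefSeq, build GRCh38.p14. The number of arrays limits the precision.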

Additional observations from a re-analysis of the deposited data

How the results depend on the processing

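The log2 differences of miR-4730, miR-3663-3p and miR-3135b were above 0 under all 21 alternatives that gave a value for them. Those centred on probes of like brightness and without scaling of the background-subtracted intensity, and the lists without normalization, were chosen after seeing the data. In that order the 3 differences were 1.42, 0.85 and 1.01 without normalization, 1.35, 0.77 and 0.94 with median scaling, 1.31, 0.74 and 0.91 with the 75th percentile, 1.63, 0.99 and 1.34 on the spike-ins, 1.36, 0.72 and 1.07 on the scaled intensities, 1.23, 0.59 and 0.94 on the authors' values, 1.20, 0.64 and 0.90 with offset 16, 1.89, 1.25 and 1.60 without scaling after background subtraction, and 1.41, 0.78 and 1.16 centred on probes of like brightness. Leaving out 1 array gave 0.95 to 1.09, 0.47 to 0.53 and 0.63 to 0.80. Of 20 limma fits, miR-4730 was past the threshold in 19, miR-3663-3p in 18 and miR-3135b in 13, with adjusted p of 0.107, 0.884 and 0.552 on the authors' values. The count of miRNAs past the threshold was 6, and 310 without normalization, 82 with median scaling, 64 with the 75th percentile, 20 on the spike-ins, 1 on the authors' values and 10 with trend and robust, and 3 to 6 without 1 array, with 3 without control replicate 1. With the replicate number as a block it was 4, and miR-3135b did not pass (limma adjusted p = 0.158). Same-numbered samples had deviations correlated at -0.14, -0.18 and 0.0077 over probes, so the numbers were not taken to pair the samples. On the spike-ins and without normalization the list medians were 0.28 and 0.17 for G-rich probes, 0.25 and 0.14 for numbers of 3000 or above, and 0.22 and 0.15 for miR-3663-5p, where the median of all tested probes was 0.20 and 0.14. The cause of these shifts was not tested.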
